A study of Mus musculus with 6 samples.

Results

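The interferon-gamma induced GTPases of the IRG (immunity-related GTPase) and GBP (guanylate-binding protein) families were followed in microglia, the macrophages that live in the brain, taken at the peak of EAE (experimental autoimmune encephalomyelitis), which models multiple sclerosis in mice. The members were chosen by gene symbol: Igtp, Irgm1, Irgm2, Iigp1 and Ifi47 of the IRG family, and Gbp2, Gbp3, Gbp5, Gbp6 and Gbp7 of the GBP family. Of these 10 genes, 7 had a named probe set on the array, 1 each, among 19505 named genes and 22206 probe sets. Ifi47, Gbp5 and Gbp6 were not named in the annotation used and are not analysed here. The compared groups were 3 control samples and 3 samples of a B cell conditional knock-out (CKO), 1 array each. All came from female C57BL/6 mice that received 100 μg of recombinant myelin oligodendrocyte glycoprotein in incomplete Freund's adjuvant and 300 ng of pertussis toxin, given again 48 h later. The series title ties the knock-out to B cells that express GM-CSF; the deleted gene, the driver of the deletion, the alleles carried by the controls, the ages and the way the cells were isolated are not stated in the labels. The labels do not say that replicates are separate animals, so the spread behind each p-value is that of these samples and could be technical.

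IRG and GBP proteins are GTPases of cell-autonomous defence that are made at high levels after interferon-gamma, and many of them also after type I interferon. They gather on the membranes of vacuoles that hold intracellular microbes and break them up, and GBPs also help inflammasomes to sense bacterial products. IRG proteins fall into a GKS class of effectors, such as Iigp1, and a GMS class of regulators, Irgm1, Irgm2 and Igtp (Irgm3), which keep the effectors off the cell's own membranes. In the brain, microglia, astrocytes, endothelial cells and infiltrating leukocytes can all make them.

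Promoters of interferon-gamma targets often hold the gamma-activated site (GAS, TTCNNNGAA), and IRF1 binds the core of the interferon-stimulated response element (ISRE, read here as GAAA, any 2 bases, GAAA). RefSeq promoter windows, running from 250 bases before to 50 after a gene start (build GRCm38.p6), were used for 8 members. No window was used for Iigp1 and Gbp6. Both motifs were searched on both strands. The 120 bases before the start are shown for the 6 measured members with a match and for 2 relatives picked by name, Tgtp2 and Gm12250. Both relatives hold matches, but other measured relatives did not. The windows of Gm5431, 9930111J21Rik2, Irgq and Atl3 held no match, and that of 9930111J21Rik1 held an ISRE only after the start. Gm5431 and both 9930111J21Rik models were nevertheless lower on every CKO array than on any control array. Capitals mark the motif matches, and an ISRE on the other strand reads TTTC first.
Igtp (chr11:58199436-58199555, plus strand): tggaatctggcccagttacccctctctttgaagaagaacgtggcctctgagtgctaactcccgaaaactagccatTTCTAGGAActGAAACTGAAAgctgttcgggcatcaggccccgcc
Irgm2 (chr11:58214857-58214976, plus strand): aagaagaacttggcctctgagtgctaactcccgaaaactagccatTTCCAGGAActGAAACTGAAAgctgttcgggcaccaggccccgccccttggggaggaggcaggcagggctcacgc
Tgtp2 (chr11:49064213-49064332, minus strand): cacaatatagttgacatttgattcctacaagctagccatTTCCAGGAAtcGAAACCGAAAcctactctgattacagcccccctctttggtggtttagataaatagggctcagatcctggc
Irgm1 (chr11:48871421-48871540, minus strand): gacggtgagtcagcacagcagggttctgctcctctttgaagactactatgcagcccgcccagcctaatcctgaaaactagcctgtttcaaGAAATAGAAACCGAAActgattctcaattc
Gm12250 (chr11:58183723-58183842, plus strand): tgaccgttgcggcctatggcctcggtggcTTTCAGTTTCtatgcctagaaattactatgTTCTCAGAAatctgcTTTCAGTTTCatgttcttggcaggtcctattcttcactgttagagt
Gbp7 (chr3:142530216-142530335, plus strand): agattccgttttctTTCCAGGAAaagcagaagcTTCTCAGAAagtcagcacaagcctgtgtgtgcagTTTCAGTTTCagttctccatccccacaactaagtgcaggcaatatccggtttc
Gbp3 (chr3:142559924-142560043, plus strand): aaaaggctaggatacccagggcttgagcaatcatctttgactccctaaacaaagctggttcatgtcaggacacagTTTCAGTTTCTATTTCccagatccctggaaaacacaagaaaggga
Gbp2 (chr3:142620543-142620662, plus strand): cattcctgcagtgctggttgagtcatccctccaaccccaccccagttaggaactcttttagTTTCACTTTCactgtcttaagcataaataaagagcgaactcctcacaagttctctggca
In Igtp the GAS began 45 bases and the ISRE 34 bases before the start. In Irgm2, which lies beside Igtp, they began 75 and 64 bases before it. The same spacing of 2 bases between the end of the GAS and the beginning of the ISRE was present in the Igtp, Irgm2 and Tgtp2 windows, and in that of Tgtp1, the near-identical neighbour of Tgtp2. The Igtp and Irgm2 windows shared an unbroken run of 61 bases. For Gbp3 the start used by the window lies 28 bases inside the RefSeq gene record, so the last bases shown are within that record; for the other genes shown both starts are the same. In Irgm1 and in Gbp3 a pair of ISRE matches overlapped, so the capitals run on.

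**Figure D1:**
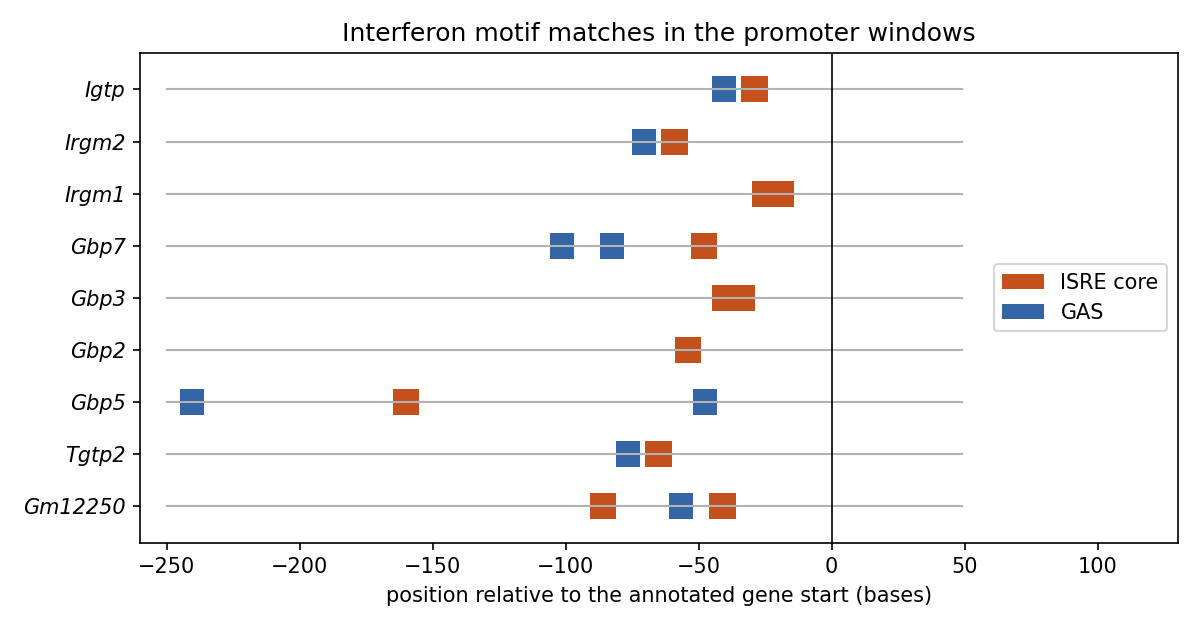
Positions of ISRE core (orange) and GAS (blue) matches in the promoter windows of 7 members and 2 relatives, in bases from the annotated gene start (0). Igtp, Irgm2 and Tgtp2 show a GAS directly before an ISRE, and Gbp2, Gbp3 and Irgm1 show ISRE matches alone.

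Of the 9 windows of these 8 members, 7 held an ISRE core and 4 a GAS, and 4 held both. Over all 32851 windows of the same length, 3.44% held an ISRE core, 8.3% a GAS and 0.454% both. The member counts lack Iigp1, the measured member with the largest change in size. Chromosome 18, which holds Iigp1, was left out of the family windows but not out of the 32851. Gbp3 had a second window with no match, and the Ifi47 window had none. These are matches of letters, not measured binding. Gbp5 held both motifs, but its expression was not analysed here.

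All 7 measured members had lower values on every CKO array than on any control array. The median log2 fold change, CKO minus control, was -1.91 over the 7 members and 0.06 over all probe sets. None passed a two-sided limma test at an adjusted p under 0.05 over all probe sets (lowest adjusted p = 0.133), a threshold that 0.00901% of probe sets passed on the lower side, and 0 passed at 0.1 (0.198%). An unadjusted p under 0.05 was reached by 7 of 7 members, all lower, against 6.35% of probe sets; 0 members and 3.55% of probe sets reached it on the higher side. Groups that did not overlap, with CKO lower, were seen for 7 of 7 members and for 8.48% of probe sets. Because no filter on low values was used, all 7 members entered these counts. Markers of T cells, NK cells and monocytes, and 6 of 8 B cell markers, were lower in the same isolates, as given further on. In such bulk samples fewer cells of a type and less RNA per cell cannot be told apart.

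**Figure D2:**
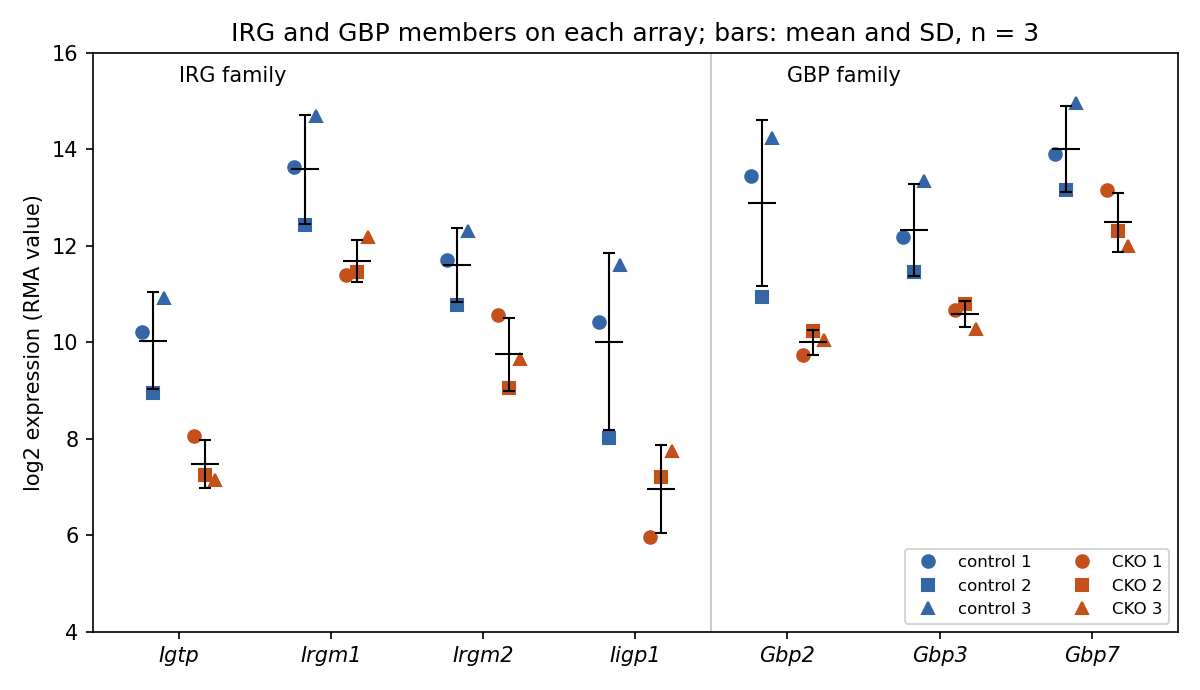
Log2 expression (RMA value) of the 7 measured members on each array, controls in blue and CKO in orange, with a symbol for each replicate number and the mean and SD of 3 arrays as bars. In all 7 genes the lowest control lies above the highest CKO array, by 0.01 for Gbp7 and by 0.89 for Igtp.

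Among the GMS regulators, Igtp stood apart most clearly. Igtp, which is needed for resistance to Toxoplasma in mice, was at 10.22, 8.95 and 10.93 log2 units on control replicates 1, 2 and 3, and at 8.06, 7.26 and 7.14 on the CKO arrays in the same order. The CKO arrays were all low, and the gap between the groups was 0.89, larger than the 0.50 SD among CKO arrays and smaller than the 1.0 SD among controls. The means were 10.03 ± 1.0 (SD, n = 3) and 7.49 ± 0.50. Its log2 fold change was -2.55 (SE 0.51, limma adjusted p = 0.133), which is 5.84-fold lower in CKO; it had the smallest p of the 7, at rank 150 over all probe sets.

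Irgm1, a regulator that also takes part in autophagy and in the upkeep of mitochondria, was at 13.63, 12.44 and 14.69 on the controls and at 11.40, 11.46 and 12.18 on the CKO arrays. Control replicate 2 lay only 0.26 above the highest CKO array. The means were 13.59 ± 1.13 and 11.68 ± 0.43 (SD, n = 3), a log2 fold change of -1.91 (SE 0.54, limma adjusted p = 0.275).

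Irgm2, a regulator found on Golgi membranes, was at 11.71, 10.78 and 12.30 on the controls and at 10.56, 9.05 and 9.66 on the CKO arrays. CKO replicate 1 lay 0.22 below the lowest control and well above the other CKO arrays. The means were 11.60 ± 0.77 and 9.76 ± 0.76 (SD, n = 3), a log2 fold change of -1.84 (SE 0.49, limma adjusted p = 0.245). Without CKO replicates 2 and 3 it was -1.04.

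The effector Iigp1 (Irga6), which coats the vacuole of Toxoplasma, had the widest spread of the 7. It was at 10.43, 8.01 and 11.61 on the controls and at 5.96, 7.21 and 7.74 on the CKO arrays. Control replicate 2 was nearer to the CKO arrays than to the other controls. The means were 10.02 ± 1.84 and 6.97 ± 0.91 (SD, n = 3), and the log2 fold change was -3.05 (SE 0.85, limma adjusted p = 0.267), the largest in size of the 7 and at rank 42 from the lowest over all probe sets.

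The GBP members showed the same array order among controls. Gbp2, which is recruited to pathogen vacuoles and to released bacterial membranes, was at 13.46, 10.95 and 14.24 on the controls and at 9.73, 10.24 and 10.05 on the CKO arrays. The CKO arrays lay close together, within 0.51, while control replicate 2 lay well below the other controls. Its means were 12.88 ± 1.72 and 10.01 ± 0.26 (SD, n = 3), a log2 fold change of -2.88 (SE 0.73, limma adjusted p = 0.222), or 7.34-fold lower in CKO.

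Gbp3, a close relative on the same chromosomal cluster, was at 12.18, 11.46 and 13.34 on the controls and at 10.68, 10.80 and 10.28 on the CKO arrays. All CKO values lay at least 0.66 below the lowest control. The log2 fold change was -1.74 (SE 0.46, limma adjusted p = 0.241).

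Gbp7, which has been tied to oxidative and autophagic killing of bacteria, was at 13.90, 13.17 and 14.96 on the controls and at 13.16, 12.31 and 11.99 on the CKO arrays. Control replicate 2 and CKO replicate 1 differed by only 0.01. Its log2 fold change of -1.52 (SE 0.50, limma adjusted p = 0.357) was the smallest in size of the 7. It became -0.85 without CKO replicates 2 and 3.

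The members varied together across the arrays. Control replicate 3 was highest, followed by control replicate 1 and then control replicate 2, in 7 of 7 members. Of all named genes, 3.3% had the controls on top in that order. That share also requires every control to lie above every CKO array, which held for 8.48% of probe sets. It therefore does not tell how rare the order among the controls is by itself, which was not tested. The controls of a member spanned 1.52 to 3.60 log2 units and the CKO arrays 0.51 to 1.78. No CKO array was lowest throughout: CKO replicate 1 was lowest for Irgm1, Iigp1 and Gbp2, CKO replicate 2 for Irgm2, and CKO replicate 3 for Igtp, Gbp3 and Gbp7. Averaged over the 7 members, deviations from each gene's mean were 1.26, -0.14 and 2.19 for the controls in the order of their numbers, and -1.02, -1.20 and -1.10 for the CKO arrays. IRG and GBP members gave nearly the same profile, with 2.24 and 2.13 on control replicate 3.

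Relatives outside the 10 members were read from a list of other IRG genes. Of 11 listed, 9 were measured, 7 of them lower in CKO at an unadjusted p under 0.05 and none at an adjusted p under 0.05 (limma). Over all probe sets 6.35% were lower at that unadjusted p, the share to set beside the counts of this list and of the later ones. For counts of genes that were lower at any p, the share over all probe sets was 44.5%. The GKS effector Tgtp2 (Irgb6) was at 13.69, 11.21 and 14.32 on the controls and at 8.95, 9.94 and 10.77 on the CKO arrays, a log2 fold change of -3.19 (SE 0.79, adjusted p = 0.211). Tgtp1 and Tgtp2 are near-identical, so their signals may be shared. Gm12250 (Irgb10), which helps to open bacterial membranes to inflammasome sensing, was at 11.69, 10.30 and 12.40 and at 9.07, 8.49 and 9.67, a log2 fold change of -2.39 (SE 0.54, adjusted p = 0.176). Both genes followed the members' order among the controls.

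The gene model Gm4951 had the smallest p of the family. It was at 11.17, 10.16 and 12.02 on the controls and at 7.69, 8.35 and 8.22 on the CKO arrays, with a gap of 1.81 between the groups. Its log2 fold change was -3.03 (SE 0.47, limma adjusted p = 0.0924). The model F830016B08Rik differed by -1.50 (adjusted p = 0.152) and Gm5431 by -0.88 (0.375). The tandem models 9930111J21Rik1 and 9930111J21Rik2, at means of 16.40 in controls for both, differed by -0.64 and -0.61 and gave nearly equal values on each array, so they may share probes. Irgc1, which is expressed in testis, and Irgq, a relative without known interferon response, differed by 0.36 and 0.28 (adjusted p = 0.73 and 0.764) and their groups overlapped. Irgc1 lay between 3.73 and 4.78, in the dimmest part of the scale, where a decrease could hardly be seen.

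The GMS regulators Irgm1, Irgm2 and Igtp differed by -1.84 to -2.55. For the GKS class, 3 effectors were picked by name, Iigp1, Tgtp2 and Gm12250, which differed by -2.39 to -3.19. The other measured IRG genes were not assigned to a class here. They differed by -3.03 (Gm4951), -1.50 (F830016B08Rik), -0.88 (Gm5431), -0.64 and -0.61 (the tandem models), 0.28 (Irgq) and 0.36 (Irgc1). The means per array ran from 10.72 to 12.64 in controls and from 9.26 to 10.01 in CKO for the regulators. For the 3 picked effectors they ran from 9.84 to 12.78 and from 7.99 to 9.39. The difference between the classes was not tested, and it cannot be read from these picked genes.

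Of 15 other GBP and large GTPase genes, 7 were measured and 6 were lower at an unadjusted p under 0.05, none at an adjusted p under 0.05 (limma). Gbp8 was at 11.32, 9.24 and 12.72 on the controls and at 7.77, 7.91 and 6.96 on the CKO arrays; its log2 fold change of -3.55 (SE 0.77, adjusted p = 0.159) was larger in size than that of any member. Gbp4 differed by -2.95 (adjusted p = 0.197) and Gbp9 by -1.86 (0.216). GBP genes are close paralogs, and cross-hybridisation between them was not tested. Gvin1, a very large interferon-inducible GTPase, differed by -1.72 (0.211). Mx1 and Mx2, genes of a dynamin-like GTPase family induced by type I interferon, differed by -2.19 and -1.83 (limma adjusted p = 0.124 and 0.185). RefSeq records both as transcribed pseudogenes in the mouse build used, so their values are of transcripts only. Atl3, an atlastin of the same superfamily that shapes the endoplasmic reticulum, differed by -0.08 (0.936), and its groups overlapped.

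**Figure D3:**
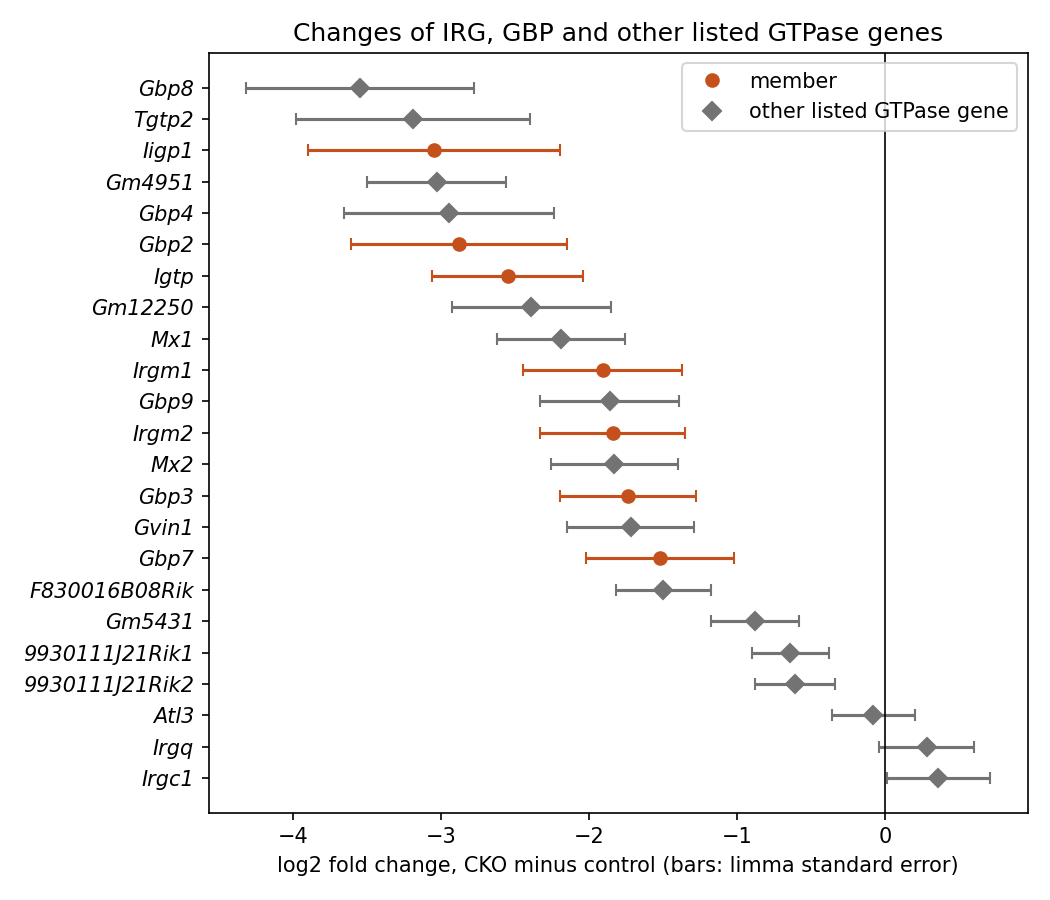
Log2 fold change (CKO minus control) with limma standard errors for the 7 members (orange circles) and 16 other listed GTPase genes (grey diamonds). The members lie between -3.05 and -1.52, among relatives that reach -3.55 for Gbp8, while Atl3, Irgq and Irgc1 lie near 0. The values of Irgc1 are in the dimmest part of the scale.

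Upstream of the GTPases, the ligand gene Ifng, made by T and NK cells, was at 9.15, 7.43 and 7.76 on control replicates 1, 2 and 3 and at 6.68, 7.43 and 6.46 on the CKO arrays. Its groups touched at 7.43, and its highest value was on control replicate 1, not on control replicate 3 where the members peaked. The log2 fold change was -1.26 (SE 0.48, limma adjusted p = 0.45). The receptor chains Ifngr1 and Ifngr2 differed by -0.35 and -0.70 (adjusted p = 0.671 and 0.485). Jak2, a kinase bound to the receptor, differed by -1.04 (0.279) and Jak1 by -0.72 (0.48).

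Irf1, the transcription factor that binds the ISRE core, was at 12.31, 11.32 and 12.77 on the controls and at 10.06, 10.25 and 10.10 on the CKO arrays. Its controls kept the members' order and its groups were 1.07 apart. The log2 fold change was -2.0 (SE 0.39, limma adjusted p = 0.121). Of the 8 measured ligand, receptor and signalling genes, all were lower, 5 at an unadjusted p under 0.05 and 0 at an adjusted p under 0.05.

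Among feedback inhibitors, 4 of 6 were lower at an unadjusted p under 0.05 and none at an adjusted p under 0.05 (limma). Usp18, which damps type I interferon signalling, differed by -2.10 (adjusted p = 0.14), Socs1, an inhibitor of JAK kinases, by -0.87 (0.45) and Socs3 by -1.37 (0.48). Ptpn2, a tyrosine phosphatase, differed by -0.09 (0.917) and Pias1 by 0.30 (0.69).

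Other targets of interferon-gamma had a median of -1.48 over 14 measured genes, 8 of them lower at an unadjusted p under 0.05 and 0 at an adjusted p under 0.05 (limma). Cxcl9, a chemokine for T cells, was at 13.46, 10.03 and 13.48 on the controls and at 7.82, 8.38 and 8.48 on the CKO arrays. Control replicate 2 again lay between the other controls and the CKO arrays. The log2 fold change was -4.10 (SE 0.84, adjusted p = 0.14). Tap1, a peptide transporter, differed by -2.95 (adjusted p = 0.0891) and Ciita, the class II transactivator, by -1.94 (0.121). Cd274, the checkpoint ligand PD-L1, differed by -2.42 (0.21). Of 7 genes of type I interferon and its signalling, 3 were lower at an unadjusted p under 0.05, Irf7 (-3.38, adjusted p = 0.121), Stat2 (-1.98, 0.239) and Tyk2 (-1.02, 0.31), while Ifnb1, the interferon-beta gene, lay between 4.19 and 5.06, in the dimmest part of the scale.

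Genes of the cytokine axis that leads T and NK cells to make interferon-gamma had a median of -0.29 over 11 measured genes. The interleukin-18 receptor chains Il18r1 and Il18rap differed by -2.86 and -1.72 (limma adjusted p = 0.121 for both) and the transducer Stat4 by -1.98 (0.288). The ligand Il18 differed by -0.41 (0.661). Only these 3 of the 11 were lower at an unadjusted p under 0.05.

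Cellular partners of the GTPases were read from 3 lists. The ATG8 conjugation machinery, by which IRG and GBP proteins are led to the right vacuole, had a median of -0.10 over 20 measured genes. Of these, 2 were lower at an unadjusted p under 0.05 (limma), beside 6.35% of all probe sets. Atg5, a part of the conjugating complex, was at 10.74, 10.88 and 10.67 on the controls and at 10.74, 10.67 and 10.95 on the CKO arrays, a difference of 0.02 (SE 0.25, limma adjusted p = 0.98). Atg7 differed by -1.29 (0.304) and Gabarap, an ATG8 protein, by -0.96 (0.478). Ubiquitin and galectin genes of damaged vacuoles had a median of -0.48 over 7, with Lgals3 (galectin-3) at -1.66 (0.121). A list of inflammasome genes and nucleic acid sensors was lower in 8 of 8, with a median of -0.86. Of these, 4 reached an unadjusted p under 0.05 (limma): Zbp1, a nucleic acid sensor (-2.44, 0.176), the pore protein gene Gsdmd (-1.37, 0.346), Il1b (-2.67, 0.383) and Casp1 (-0.74, 0.438). Casp4, the lipopolysaccharide sensor that GBPs feed, differed by -0.89 (0.509). None of the genes in these 3 lists reached an adjusted p under 0.05. The difference between these lists and the members was not tested.

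The 10 named genes closest to the members' mean profile were ranked by the root mean square difference of centred log2 values over the 6 arrays, among 19482 genes outside the families. They were Stat2 (0.185), Dnase1l3 (0.20), Helz2 (0.211), Ifit1 (0.225), Xaf1 (0.231), Cxcl16 (0.25), Cd2 (0.254), Slfn1 (0.256), Oas1a (0.259) and Clec2d (0.261). The median over all those genes was 1.37, and the members themselves lay at 0.303 (Irgm1) to 0.80 (Iigp1) from their own mean. Cd2 is a T cell marker, whereas Stat2, Ifit1 and Oas1a belong to the type I interferon response. Stat2, the closest, was at 12.15, 11.09 and 13.40 on the controls and at 10.14, 10.17 and 10.39 on the CKO arrays.

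Marker lists of T cells, NK cells and monocytes were lower in CKO like these genes, while the microglial list was not and the endothelial list was mixed. The microglial markers Csf1r and P2ry12 were at 19.65 ± 0.10 and 19.14 ± 0.33 (SD, n = 3) in controls, near the top of the scale, and at 19.68 ± 0.03 and 19.69 ± 0.04 in CKO. Gpr34 was at 17.65 ± 0.44 and 18.54 ± 0.07, and Fcrls at 17.29 ± 0.60 and 18.50 ± 0.28. In P2ry12, Gpr34 and Fcrls the CKO arrays lay above all controls, as in 1319 of 22206 probe sets. Their log2 fold changes were 0.55, 0.89 and 1.21 (limma adjusted p = 0.543, 0.383 and 0.312). Of 11 microglial markers 3 were lower and 8 higher. All 14 T cell markers were lower, and their mean level per array ran from 8.25 to 10.16 in controls and from 6.40 to 7.19 in CKO. Cd3e was at 12.55, 9.59 and 12.45 on the controls and at 6.48, 8.21 and 7.40 on the CKO arrays. All 11 NK cell markers (7.58 to 8.87 against 6.83 to 7.23) and all 11 monocyte markers (12.55 to 13.28 against 10.95 to 11.76) were lower as well. Of 8 B cell markers 6 were lower and 2 higher, with means of 7.03 to 7.68 in controls and 5.63 to 6.63 in CKO. Only 2 of them, Jchain and Cd22, were lower at an unadjusted p under 0.05 (limma). The groups of all the other B cell markers overlapped. Among those, Cd79b differed by -0.88 and Fcmr by 0.03 (limma adjusted p = 0.534 and 0.981). Jchain, the joining chain of secreted antibodies made by plasma cells, was at 10.76, 11.02 and 13.09 on the controls and at 5.14, 8.80 and 5.98 on the CKO arrays, and its log2 fold change of -4.98 (SE 0.95, limma adjusted p = 0.121) was the lowest of all probe sets. Cd22, a B cell surface lectin, was at 8.14, 8.29 and 8.73 and at 6.32, 6.62 and 5.56, a log2 fold change of -2.22 (SE 0.35, limma adjusted p = 0.0983). Neither gene's groups overlapped, and both were lower on control replicate 1 than on control replicate 2, unlike the members. Control replicate 2 had the lowest T cell, NK cell and monocyte means of the controls, as it had the lowest member values. T cell means were nearly equal on control replicates 1 and 3, where the members differed by a mean deviation of 1.26 against 2.19. Endothelial markers were lower in 5 of 11 and had means of 7.39 to 7.58 against 7.26 to 7.59. At an unadjusted p under 0.05 (limma), 3 of the 11 were lower and 1 was higher. No marker is at 0 on this scale. The part of these cells in the members' difference was not tested.

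Markers of neural cells divided the arrays in another way. Astrocyte markers had mean levels of 11.0 on control replicate 2 and 12.54 on CKO replicate 1, against 8.51 to 9.08 on the other arrays, and neuron and oligodendrocyte markers were highest on the same pair. With both arrays left out, 2 per group remained, and the members differed more, with a median of -2.65. All 7 then passed at an adjusted p from 0.00173 (Gbp2) to 0.0143 (Gbp3) in limma, a threshold that 6.28% of probe sets then passed on the lower side. CKO replicates 2 and 3, the CKO group there, had narrower values than any other array, with interquartile ranges of 3.08 and 3.11 beside 3.66 to 4.0. In that comparison the genotype and the narrow range cannot be told apart. With CKO replicate 1 as the only CKO array, the median was -1.97; the spread in that fit came from the controls alone, and 0 of all probe sets passed.

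**Figure D4:**
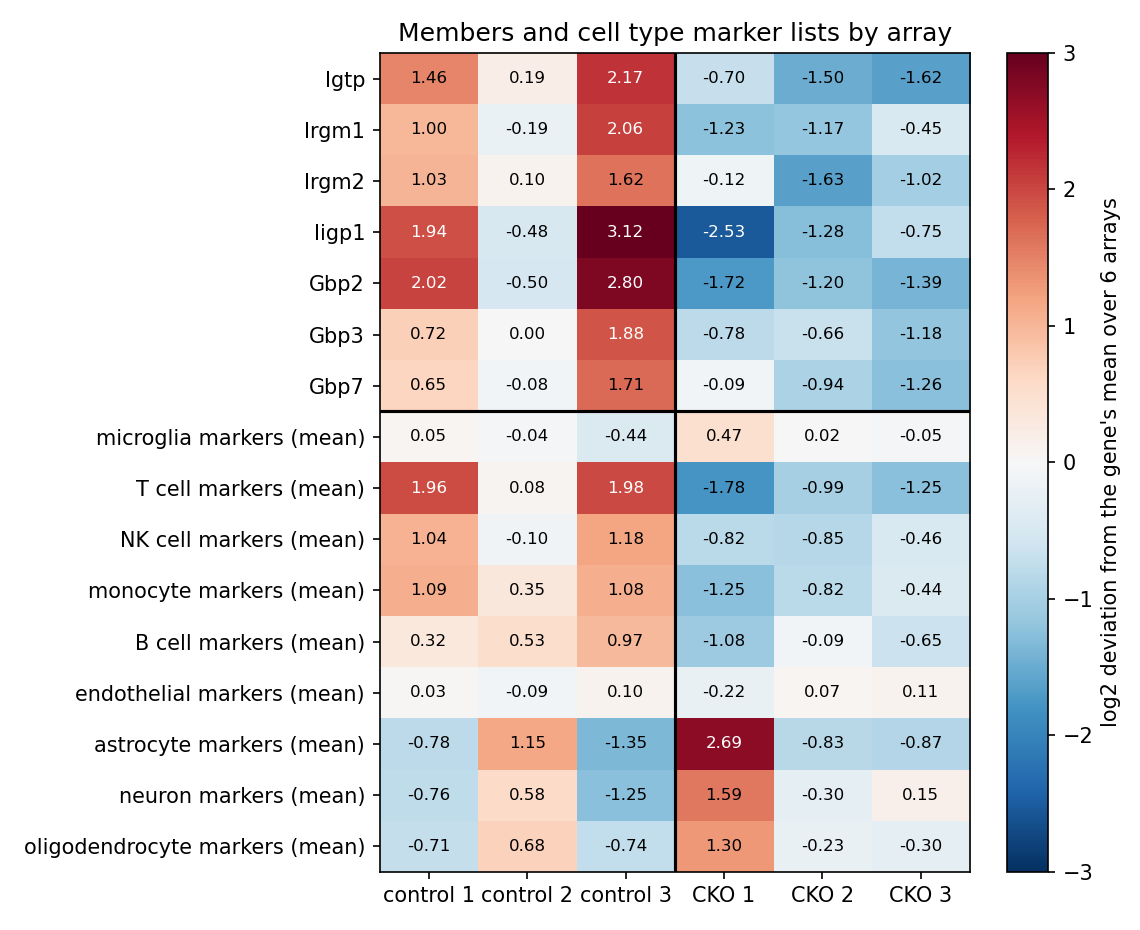
Deviation in log2 units from each gene's mean over the 6 arrays, for the 7 members and for the mean of each cell type marker list. The members and the T cell, NK cell and monocyte lists are highest on control replicates 1 and 3, and the astrocyte, neuron and oligodendrocyte lists on control replicate 2 and CKO replicate 1.

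With each array left out in turn, all 7 members stayed lower in CKO. That direction was fixed beforehand, because their groups did not overlap, so only the sizes and p-values could change. The sizes were smallest without control replicate 3, from -1.05 (Gbp7) to -2.25 (Iigp1), and largest without control replicate 2, from -1.94 (Gbp7) to -4.05 (Iigp1). Without control replicate 2, Gbp2, Igtp and Iigp1 passed in limma (adjusted p = 0.0168, 0.0356 and 0.0462), beside 0.563% of probe sets on the lower side. Without CKO replicate 1, Igtp, Irgm2 and Gbp7 passed (adjusted p = 0.018, 0.0225 and 0.0438), beside 4.94% of probe sets. With arrays weighted by their fit, all 7 passed (adjusted p = 0.013 to 0.0475, limma), beside 4.76% of probe sets on the lower side. Gbp7 missed an unadjusted p of 0.05 without control replicate 3 and without CKO replicate 3.

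**Figure D5:**
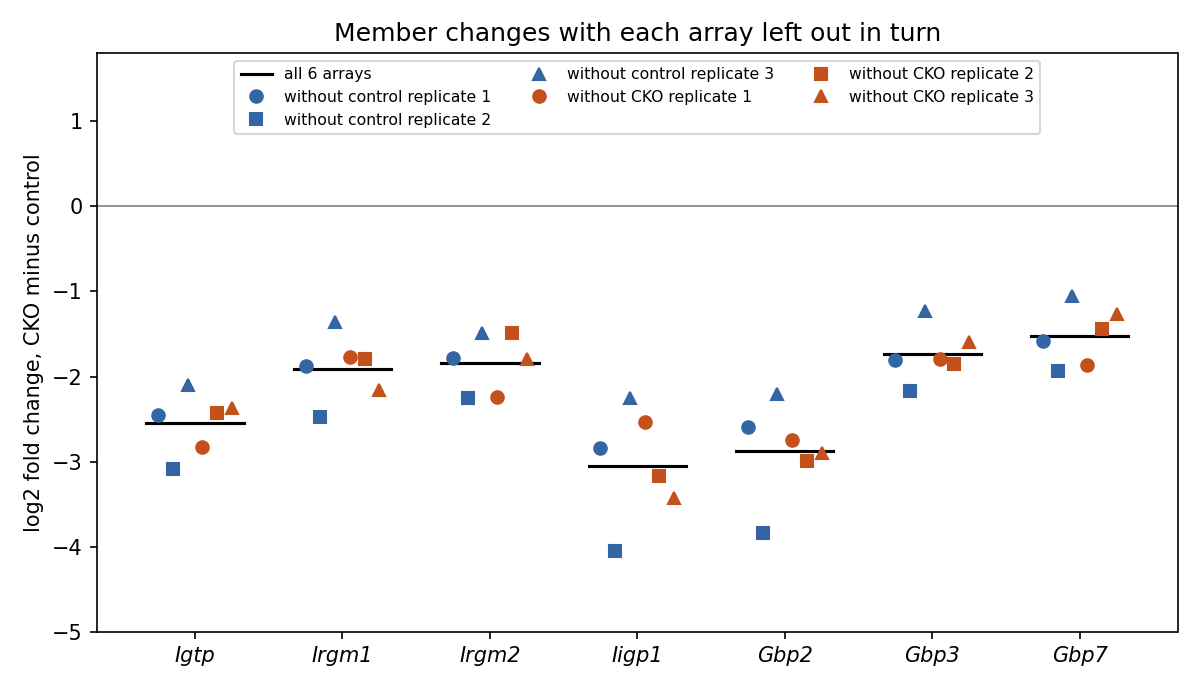
Log2 fold change (CKO minus control) of each member with all 6 arrays (black line) and with each array left out (symbols). All values lie below 0, as they must where groups do not overlap. Leaving out control replicate 2 or control replicate 3 moved them farthest, to -4.05 and -2.25 for Iigp1.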

How the data were processed

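Per the labels' protocols, TRIzol was used to isolate the RNA, and the WT PLUS kit of Affymetrix to label it. The authors deposited 1 log2 value per probe set and array, for which the submitters' processing notes name RMA, a method that normalizes arrays and sums probes up; its version and settings, and the genome build, are not stated there. That the values are log2 follows from their range, 2.93 to 19.93. The platform annotation named 19572 of 22206 probe sets with 1 gene and 0 with several, and left 2634 unnamed here; all 19572 matched a RefSeq mouse table (GRCm38.p6) by gene number. The probe set with the highest mean stood for a gene. Values of 254 probe sets equalled those of another, 0 of them of members. Signal over background could not be judged from these values; the number of arrays limits the precision.

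Groups came from the labels. limma 3.58.1 (R 4.3.3; lmFit, eBayes, no covariate) was fitted to all probe sets, with Benjamini-Hochberg adjustment at 0.05, and tested on simulated data. Replicate numbers were not used as pairs. The alternatives were other scalings, filters on dim probe sets, a robust fit with a trend, weights for arrays, a replicate block and each array left out; the omission of array pairs was added after seeing the data. Members and gene lists were chosen with earlier results of these data known. Named genes are the members, all measured family genes, up to 6 genes of smallest p per pathway list, up to 4 brightest markers per list, and the 10 genes nearest the members' profile; Ifngr1, Ifnb1, Atg5 and Fcrls were named after their values were seen.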

Additional observations from a re-analysis of the deposited data

How the results depend on the processing

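All 112 member values under the 16 alternatives stayed lower in CKO and 0 reversed. For the alternatives that only leave out arrays this was fixed beforehand, because the members' groups did not overlap. The median of the 7 members ran from -2.48 to -1.49 with each array left out; it was -1.66 after quantile normalization, -1.63 after cyclic loess and -2.03 with arrays centred on their medians, which moved the median of all probe sets from 0.06 to -0.06. With limma, 0 members passed at an adjusted p of 0.05 in most settings, while 5 to 7 were lower at an unadjusted p under 0.05, beside 3.84% to 14.2% of probe sets; 7 passed with array weights (adjusted p = 0.013 to 0.0475, beside 4.76% of probe sets on the lower side), 7 without control replicate 2 and CKO replicate 1 together, and 0 to 3 with each array left out. Array weights gave CKO replicate 1 the lowest weight, 0.258. Of all probe sets, 2 passed as deposited, 1 after quantile normalization or with the dimmest 20% or 50% left out, 4 in the trended robust fit, 1694 with array weights, 0 to 2209 with each array left out, 2516 without control replicate 2 and CKO replicate 1, and 0 without CKO replicates 2 and 3, where the lone CKO array is assumed to vary like the controls (4.88% were then lower at an unadjusted p under 0.05, among them 5 members); the cause was not tested. With the replicate number as a block, 0 probe sets passed. The members' adjusted p in limma then ran from 0.175 to 0.413, with 7 of 7 lower at an unadjusted p under 0.05, beside 6.42% of probe sets. Same-numbered samples deviated from their group means with correlations of -0.005, -0.23 and 0.254. The highest of all correlations, 0.304, was between control replicate 2 and CKO replicate 1, the arrays with the highest neural markers. Whether samples of the same number were paired cannot be told from these values. Each member had 1 probe set, so a mean of probe sets was not run.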
